A study of Homo sapiens with 6 samples.

Results

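The sirtuin genes SIRT1, SIRT2, SIRT3, SIRT4, SIRT5, SIRT6 and SIRT7 were examined for peaks of lactylated lysine 5 of histone H4 (H4K5la). Chromatin immunoprecipitation and sequencing had been carried out in PLC/PRF/5, a long-established cell line from a human liver cancer. Lactate samples were kept for 24 h in medium with 20 mM lactic acid, and the others have control as their treatment label. The protocol text is the same for every sample and names the lactate culture for the control samples too, so the groups rest on the treatment label; no other agent or genetic change is named. Of each, replicates 2 and 3 have a peak list, which gives 2 lactate and 2 control libraries. The members are all 7 human sirtuin genes, of 19974 protein-coding genes on chromosomes 1 to 22 and X, and a peak was assigned to a gene when it overlapped the RefSeq span of the gene or the 5 kb on either side (build hg38, used for all positions). This window held 4 and 6 of the 37951 and 38402 peaks of the lactate libraries and 11 and 14 of the 52215 and 52959 peaks of the control libraries, summed over the 7 genes. All libraries come from 1 cell line, and separate cultures for the replicates are not stated, so their spread, and any p-value built on it, may be technical. Peak lists give no expression, so the labelled cell type could not be checked against marker genes.

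Sirtuins are enzymes that use NAD+ to remove acyl groups from lysines, or in some members to transfer ADP-ribose. SIRT1, SIRT6 and SIRT7 act mainly in the nucleus, SIRT2 mainly in the cytoplasm, and SIRT3, SIRT4 and SIRT5 in mitochondria. Purified SIRT1, SIRT2 and SIRT3 can remove lactyl groups from histone lysines, the kind of mark mapped here, and in liver the family is known for its part in fasting metabolism.

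The start sites of 4 sirtuin genes are shown as examples. No H4K5la peak of any library overlapped them, and none overlapped those of SIRT4 and SIRT6, which are not printed. Each sequence runs from 250 bases before to 50 bases after the most upstream start in the RefSeq promoter table (GRCh38.p14), which held 6 of the 7 genes. Capitals mark the E box CACGTG, the GC box GGGCGG and the NRF1 motif (GCGCA joined to its reverse complement TGCGC), read on both strands.
SIRT1 (chr10:67884406-67884705, plus strand): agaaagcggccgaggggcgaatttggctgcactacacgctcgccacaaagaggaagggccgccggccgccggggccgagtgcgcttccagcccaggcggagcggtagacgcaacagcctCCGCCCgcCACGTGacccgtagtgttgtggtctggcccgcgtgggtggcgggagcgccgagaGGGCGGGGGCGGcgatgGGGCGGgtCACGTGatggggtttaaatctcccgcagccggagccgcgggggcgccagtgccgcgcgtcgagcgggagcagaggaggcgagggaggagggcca
SIRT2 (chr19:38899569-38899868, minus strand): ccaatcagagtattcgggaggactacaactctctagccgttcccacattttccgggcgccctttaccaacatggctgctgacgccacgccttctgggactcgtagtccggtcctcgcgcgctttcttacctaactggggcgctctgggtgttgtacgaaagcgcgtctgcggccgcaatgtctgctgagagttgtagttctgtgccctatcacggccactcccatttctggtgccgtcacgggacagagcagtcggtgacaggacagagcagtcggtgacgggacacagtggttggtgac
SIRT3 (chr11:236882-237181, minus strand): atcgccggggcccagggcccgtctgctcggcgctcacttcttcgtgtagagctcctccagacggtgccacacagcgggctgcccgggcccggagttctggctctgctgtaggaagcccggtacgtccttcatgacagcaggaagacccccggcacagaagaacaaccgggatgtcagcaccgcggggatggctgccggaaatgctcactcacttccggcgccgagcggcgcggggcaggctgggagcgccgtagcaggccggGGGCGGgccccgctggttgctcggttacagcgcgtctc
SIRT5 (chr6:13574279-13574578, plus strand): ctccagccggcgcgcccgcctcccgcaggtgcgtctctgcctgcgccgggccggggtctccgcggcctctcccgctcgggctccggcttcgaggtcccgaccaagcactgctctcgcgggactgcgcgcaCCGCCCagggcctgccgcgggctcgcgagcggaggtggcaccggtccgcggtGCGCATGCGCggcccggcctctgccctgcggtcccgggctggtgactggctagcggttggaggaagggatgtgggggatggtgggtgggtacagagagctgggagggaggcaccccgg

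None of the 6 promoters, with SIRT4 and SIRT6 included, overlapped a peak in any of the 4 libraries. Over 15812 coding genes with such a sequence, the share with a peak was 5.33% and 5.41% in the lactate libraries and 8.84% and 9.89% in the control libraries, and 13.8% in at least 1 library, so 0 of 6 is not far from that background. SIRT1 held 2 E boxes and 4 GC boxes, and SIRT5 held the NRF1 motif and 1 GC box. SIRT6 held the NRF1 motif and 4 GC boxes, and SIRT4 none of the motifs searched. SIRT3 held 1 GC box, and SIRT2 held none of the 3 motifs. No match overlapped another in the printed sequences. The E box, GC box and NRF1 motif occurred in 8.34%, 56.3% and 1.5% of 22132 promoter sequences. The CCAAT box, left in lower case, was found once in SIRT2 and SIRT6 and in 34.6% of these sequences, and the ETS motif CCGGAAGT once in SIRT3 and in 5.35%. The distance from the start site to the nearest peak was between 1417 and 1548 bp at SIRT6, between 5040 and 5685 bp at SIRT2 and between 17038 and 17082 bp at SIRT5, over the 4 libraries.

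Across the family, peaks lay at 3 genes in lactate replicate 2, 4 genes in lactate replicate 3 and 5 genes in either control library. SIRT2, SIRT5 and SIRT6 held a peak in all 4 libraries, SIRT3 held control peaks alone, in both replicates, and SIRT7 held them in both control libraries and lactate replicate 3. SIRT1 and SIRT4 held none, and no sirtuin gene had a peak with lactate alone. Over all coding genes, 33% had a peak in all 4 libraries, 5.77% in both control libraries alone, 1.11% in both lactate libraries alone, and 40.6% in none. Where the window was as long as those of the sirtuins (16238 to 50885 bp), these shares were 33.8%, 6.26%, 1.05% and 39.5% of 8817 genes. Set against these shares, counts of 3, 1, 0 and 2 among 7 genes are near the background. The SIRT7 call turned on single libraries and on the flank. Without lactate replicate 3, SIRT7 joined SIRT3 and 2 genes had control peaks alone. Without lactate replicate 2, or with a flank of 10 kb, SIRT7 had a peak in every library and 4 genes did so.

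**Figure D1:**
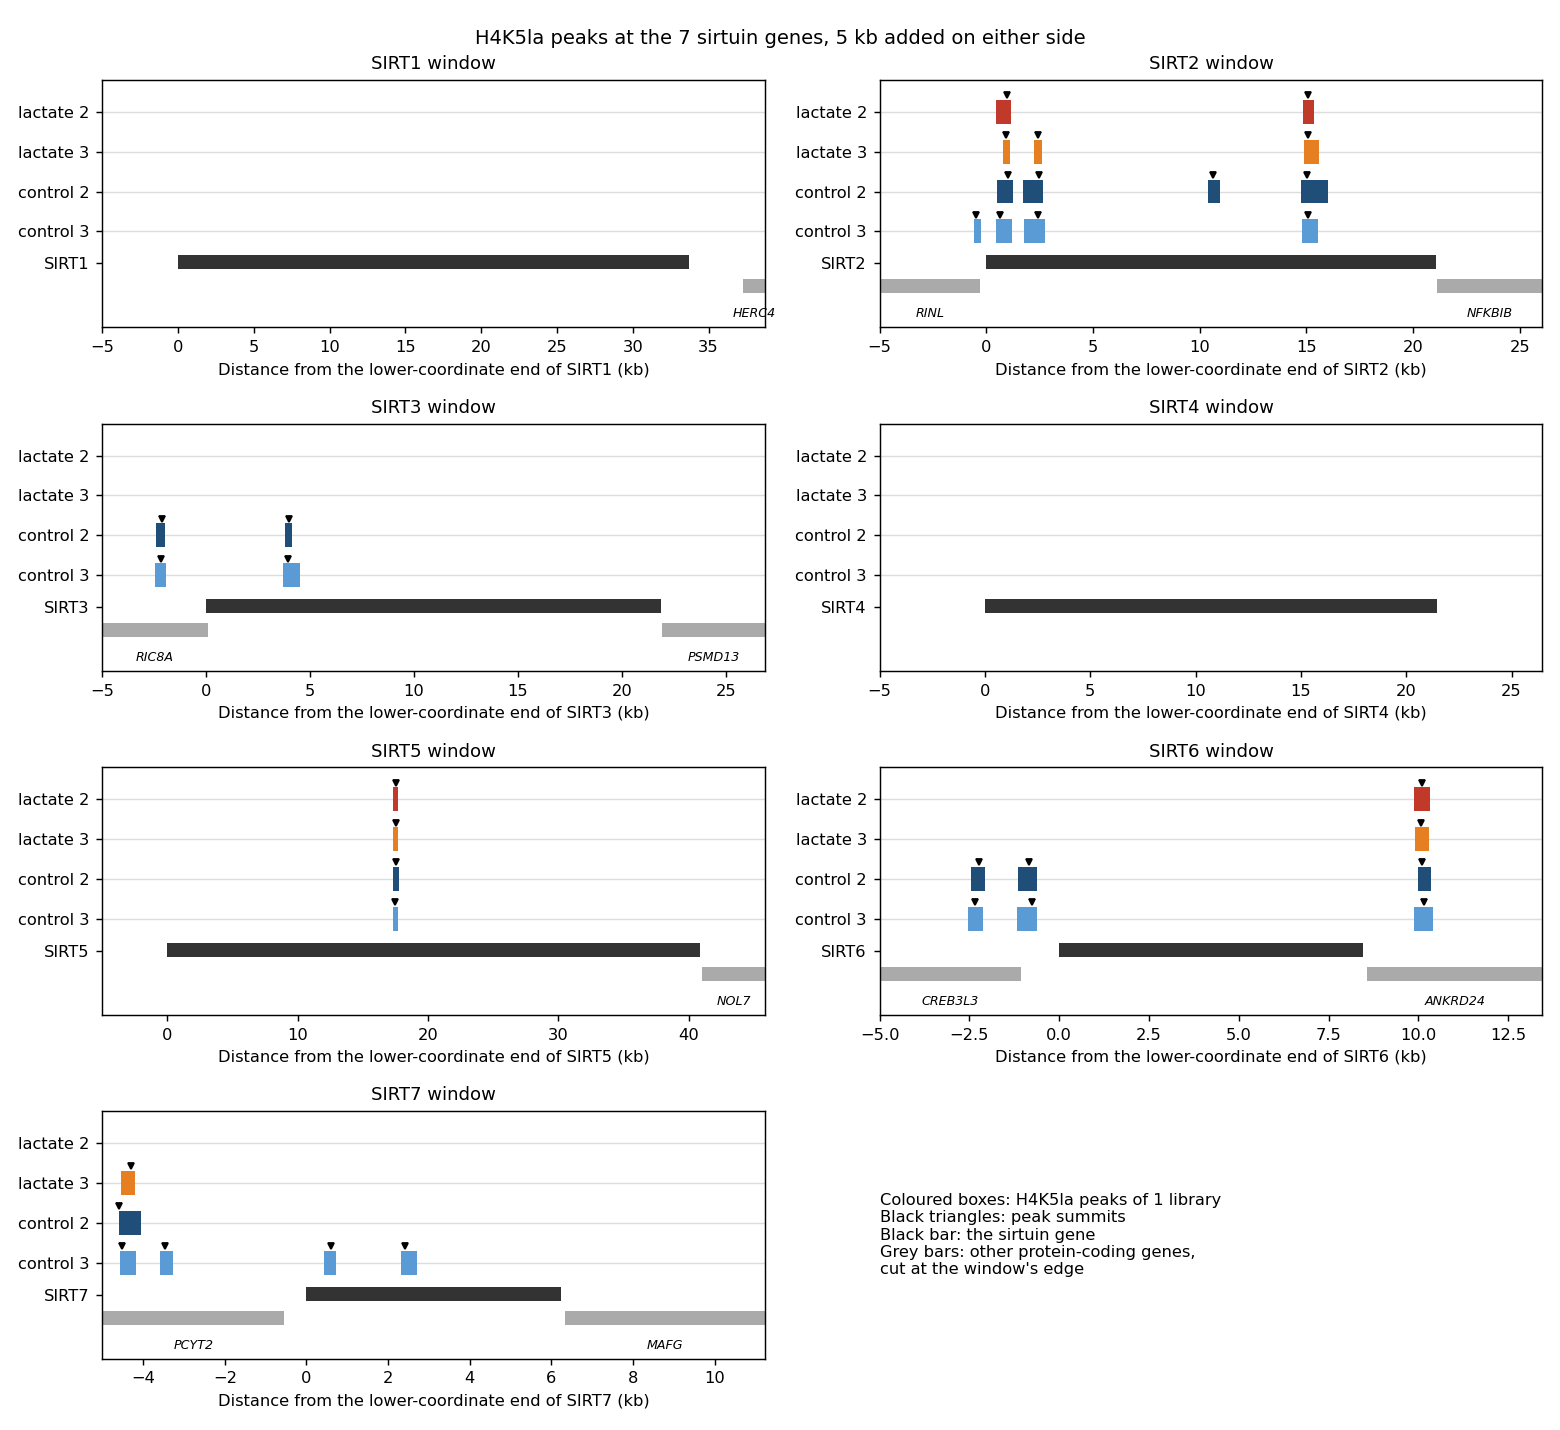
Peaks in the window of each sirtuin gene. The horizontal axis is the distance in kb from the lower-coordinate end of the gene. Rows are the libraries (lactate replicates 2 and 3, then control replicates 2 and 3), boxes are peaks and triangles their summits, with the sirtuin gene in black and other coding genes in grey. SIRT5 has a peak at the same place in all 4 libraries, SIRT3 has peaks in the control libraries alone, and the rows of SIRT1 and SIRT4 are empty.

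The summed length of the 7 windows under peaks was 2070 and 2549 bp in the lactate libraries and 6548 and 7376 bp in the control libraries. The lactate libraries averaged 2309.5 ± 339 bp in 5 ± 1.41 peaks, and the control libraries 6962 ± 585 bp in 12.5 ± 2.12 peaks (SD, n = 2 each). Both lactate libraries lay below both control libraries on either measure. Lactate values were 0.332 of control values for covered length and 0.4 for peak number. Summed over the windows of all coding genes, where peaks in overlapping windows count more than once, the ratios were 0.515 and 0.712. For both sirtuin measures p was 0.333 in an exact permutation test (two-sided, 6 assignments), the smallest p that 2 against 2 libraries allow. When each list was limited to its 37951 peaks of highest -log10 p, the ratio of covered length was 0.461 for the sirtuin windows and 0.649 for all coding windows.

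Relative to control replicate 2, the recovered ChIP depth was 0.786 and 0.888 in lactate replicates 2 and 3 and 0.942 in control replicate 3. The lactate libraries were thus the shallower ones, and the part of depth in the number and length of peaks was not tested. The depth of the input behind the peaks was also taken relative to control replicate 2. It was 0.959 and 0.960 with lactate and 1.002 in control replicate 3, nearly equal within each treatment. The labels name a single input for each treatment, so input and treatment cannot be told apart. Counting intervals on reads below are exact Poisson 95% intervals and cover counting error only.

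By member, the covered length was lower in both lactate libraries than in both control libraries for SIRT2, SIRT3, SIRT5, SIRT6 and SIRT7, that is for 5 of 7 genes, against 32.8% of coding genes. It was higher in both lactate libraries for 0 of 7, against 3.4% of coding genes. Among the genes of like window length these shares were 35% and 3.02%. With equal numbers of peaks per library it held for 4 of the 7, SIRT7 dropping out, against 21% of coding genes. SIRT5 entered this count on a difference of a few base pairs, as its values below show. The median covered share of a sirtuin window was 0% and 0.808% in the lactate libraries and 2.46% and 4.11% in the control libraries, and over all coding genes 0% and 0% against 0% and 0.119%.

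**Figure D2:**
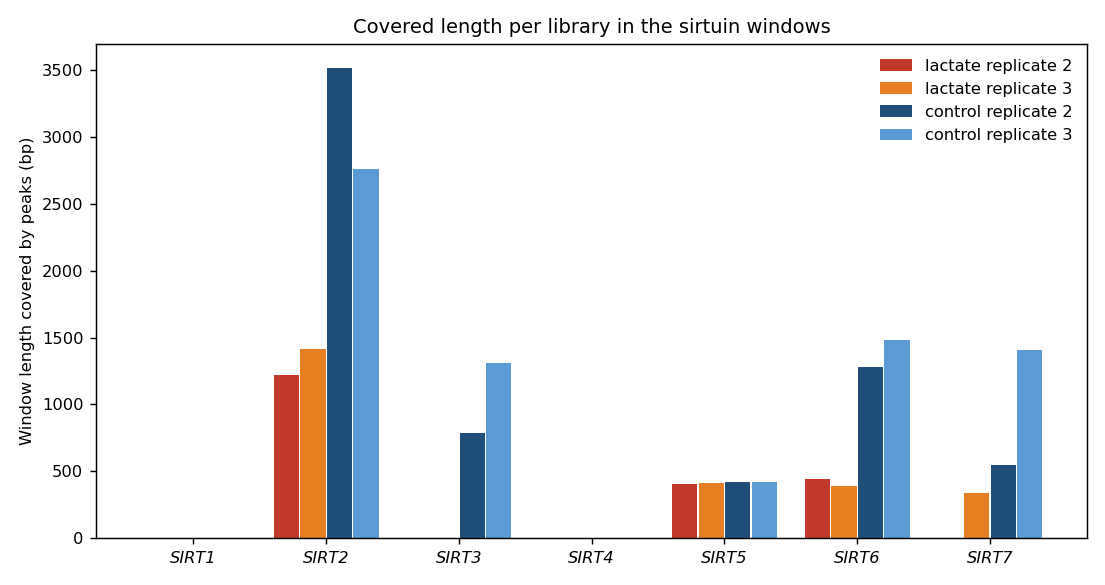
Length of each sirtuin window covered by peaks, in bp, per library. Bars are single libraries, lactate replicates 2 and 3 to the left of control replicates 2 and 3. SIRT2 has the tallest bars, from 1223 to 3522 bp, and the bars of SIRT5 are nearly level, from 407 to 419 bp.

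SIRT2, which encodes a mostly cytoplasmic deacetylase of tubulin and other proteins, lies on the minus strand of chromosome 19 from 38878555 to 38899618. Its window had the largest covered share of the family, a mean of 7.18% over the 4 libraries, and 2479 of the 19974 coding genes had a larger one. Peaks covered 1223 and 1413 bp in the lactate libraries and 3522 and 2762 bp in the control libraries, in 2 and 3 peaks against 4 and 4. Both lactate libraries thus had fewer peaks and a shorter covered length than both control libraries. Exons and introns could not be assigned, because the gene table gives spans without exons.

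The peak nearest the 5′ end of SIRT2 (38893321 to 38894578) had the largest ratio of lactate to control reads among the 4 sirtuin regions with a peak in all 4 libraries. Its summits lay within 52 bp of each other in the 4 libraries, 5970 to 6022 bp downstream of the start site. The summit held 34 reads (interval 23.5 to 47.5) in lactate replicate 2 and 40 reads (28.6 to 54.5) in lactate replicate 3. It held 25 reads (16.2 to 36.9) in control replicate 2 and 22 reads (13.8 to 33.3) in control replicate 3. Scaled to the depth of control replicate 2, these counts were 43.2 and 45.1 with lactate and 25.0 and 23.4 in control. Both lactate libraries thus lay above both control libraries, by a ratio of means of 1.83 (exact permutation p = 0.333). Single counting intervals overlapped between the groups.

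For the same region the authors' fold enrichment over background was 11.7 and 12.4 in the lactate libraries and 6.20 and 5.82 in the control libraries. The background at the summit, in reads of the library, was 1.83 and 2.0 with lactate and 2.84 and 2.67 in control, so background was lower where reads were higher. Background comes from the input, and the labels name a single input library for each treatment. Background values of the same treatment are therefore probably not independent. The fold values rest on them too, and in part on a scaling factor that differs between libraries. Peak width was 539 and 700 bp with lactate and 1258 and 710 bp in control. The signal at the summit was therefore higher in both lactate libraries. The widths of lactate replicate 3 and control replicate 3 were nearly equal, so the lower mean width with lactate rested largely on the wide peak of control replicate 2. Of the 20499 regions of the genome with a peak in all 4 libraries, the median ratio of scaled summit reads was 1.13 and 98.1% had a ratio below that of this region. The median over these regions is above 1, so scaled reads were on the whole higher with lactate in the regions called in all libraries. Of 38825 regions with a peak in both control libraries, 52.8% had one in both lactate libraries. Regions without a lactate peak have no lactate reads on record. Median and rank thus hold only for regions that passed calling with lactate, a selection that can raise the ratio. The background ratio of the SIRT2 region was 0.695 against a median of 0.945. Both are in library reads not scaled to depth, so they include the lower depth of the lactate libraries. Its width ratio was 0.630 against a median of 0.793.

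At the 3′ end of SIRT2, a region from 38879009 to 38879792 also held a peak in all 4 libraries. Scaled summit reads were 25.4 and 37.2 with lactate and 36.0 and 27.6 in control, a ratio of means of 0.984 (exact permutation p = 1), with 31.4% of the genome's regions in all libraries below it. The groups overlapped, and the summits were spread over 351 bp. A neighbouring region (38880259 to 38881292) held a peak in lactate replicate 3 and both control libraries, and none in lactate replicate 2. In lactate replicate 3 it had 63 reads over a background of 11.8, against 32 reads over 4.51 in control replicate 2 and 29 over 4.23 in control replicate 3. Reads and background were thus both higher in that lactate library, and its fold of 4.89 lay below the control values of 5.63 and 5.45. Of the remaining SIRT2 peaks, control replicate 2 alone had 1 inside the gene (38888927 to 38889497), and control replicate 3 alone had 1 beyond the 3′ end, over RINL, a gene for a Rab5 exchange factor.

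SIRT5, whose product removes succinyl, malonyl and glutaryl groups in mitochondria, spans 13574274 to 13615158 of chromosome 6 on the plus strand. It had 1 peak in every library, 407 and 411 bp wide with lactate and 419 and 417 bp wide in control. The 4 summits lay within 49 bp, 17231 to 17280 bp downstream of the start site and inside the gene. Among the 4 sirtuin regions with a peak in all 4 libraries, summit spreads were 49 bp here, 52 bp at the SIRT2 5′ region, 72 bp at SIRT6 and 351 bp at the SIRT2 3′ end. Summit reads were 21 and 34 with lactate and 21 and 24 in control. Scaled to depth they were 26.7 and 38.3 with lactate and 21.0 and 25.5 in control, a ratio of means of 1.40 (exact permutation p = 0.333), with 80.6% of such regions below it. Both lactate values lay above both control values, though lactate replicate 2 exceeded control replicate 3 by little. Fold enrichment overlapped between the groups, at 9.33 and 13.4 with lactate and 8.59 and 10.3 in control (exact permutation p = 0.667).

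SIRT6, a nuclear deacylase and ADP-ribosyltransferase of chromatin, lies on the minus strand of chromosome 19 from 4174109 to 4182563. No peak of any library overlapped the gene itself, and all peaks of its window lay over or beside neighbouring genes. The peak in all 4 libraries (4183980 to 4184528) lay inside ANKRD24, with its summits at -1629 to -1701 bp from the SIRT6 start site, that is upstream of it. Its scaled summit reads were 31.8 and 31.5 with lactate and 22.0 and 28.7 in control, a ratio of means of 1.25 (exact permutation p = 0.333), with 65.1% of such regions below it. The lactate values were higher than both control values, while fold enrichment (8.73 and 8.83 with lactate, 6.88 and 8.86 in control) overlapped.

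On the 3′ side of SIRT6, regions from 4171576 to 4172041 and from 4172944 to 4173489 overlapped CREB3L3, which encodes a liver transcription factor of the fasting response. The control libraries alone had peaks there, in both replicates, with 29 and 27 reads at the summits of the first region and 24 and 21 at those of the second. At lactate depth the control level would be 22.7 and 25.6 reads in the first region, where lactate peaks of like background were called from 13 and 15 reads upwards. In the second it would be 18.2 and 20.6 reads, with calls from 14 and 15. These calls are the lowest among such peaks, and the background was taken from the control libraries. Reads and background of the lactate libraries are not recorded where no peak was called. The part of depth in this difference was not tested. The covered length of the SIRT6 window was thus 440 and 387 bp with lactate and 1276 and 1481 bp in control, without overlap of the groups. With a -log10 q of at least 5, or with equal numbers of peaks, the lactate values were again 440 and 387 bp and the control values 756 and 936 bp, so the difference was -432.5 bp in place of -965 bp.

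SIRT3, the main deacetylase of mitochondrial enzymes, lies on the minus strand of chromosome 11 from 215030 to 236931. No peak was called in its window in either lactate library, against 786 and 1311 bp under peaks in the control libraries. From the start site to the nearest peak there were 12490 and 31023 bp in the lactate libraries and 12471 and 17372 bp in the control libraries. The nearest peaks of lactate replicate 2 and control replicate 2 thus lay beyond the window, on the 5′ side and at nearly the same distance. The peak inside the gene (218745 to 219559) had its summit 17917 bp downstream of the start site in control replicate 2 and 17959 bp in control replicate 3, with 20 and 21 reads and a fold enrichment of 8.20 and 9.11. The other (212588 to 213083) lay beyond the 3′ end over RIC8A, a chaperone gene for G protein alpha subunits, with 22 and 25 reads and a fold of 5.87 and 7.02.

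The mean scaled control reads inside the gene, 21.1, correspond to 16.6 reads at the depth of lactate replicate 2 and 18.8 at that of lactate replicate 3. Lactate peaks with a like background, within 10%, were called from 7 reads upwards in replicate 2 and from 8 upwards in replicate 3. For the RIC8A side the corresponding values were 19.1 and 21.6 reads, with calls from 10 and 12 reads upwards. As at SIRT6, these are the lowest calls among such peaks, and the background was taken from the control libraries. The 7 and 8 reads are also the lowest at any summit of these lactate libraries, so a region at the control level need not have been called. The lists do not record reads or background in the lactate libraries where no peak was called, and the part of depth in the SIRT3 difference was not tested. Of 7155 regions with both control peaks between 7.47 and 12.1 in -log10 q, the range at SIRT3, 31.9% held no lactate peak. SIRT3 kept peaks in both control libraries alone with equal numbers of peaks per library. Coding genes with this call numbered 527 (2.64%) with equal numbers of peaks and 1153 with the full lists. SIRT3 already had the call with the full lists, so 2.64% does not measure how rare it was to keep it.

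SIRT7, a nuclear deacetylase linked to ribosomal RNA transcription, spans 81911939 to 81918176 of chromosome 17. Fold enrichment of its peaks was 3.09 in lactate replicate 3, 2.38 in control replicate 2 and between 2.38 and 3.98 in control replicate 3. Covered length was 0 and 338 bp with lactate and 545 and 1405 bp in control. The region held in 3 libraries (81907335 to 81907879) lay 4060 bp from SIRT7, inside PCYT2, a gene of phosphatidylethanolamine synthesis. Its summits held 36 reads over a background of 10.8 in lactate replicate 3, 35 over 13.9 in control replicate 2 and 32 over 12.7 in control replicate 3. Background was therefore several times that at SIRT3 or SIRT5, and peaks inside SIRT7 itself were found in control replicate 3 alone (81912357 to 81912673 and 81914263 to 81914635). With equal numbers of peaks per library both control libraries lost all peaks here and lactate replicate 3 kept its peak.

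**Figure D3:**
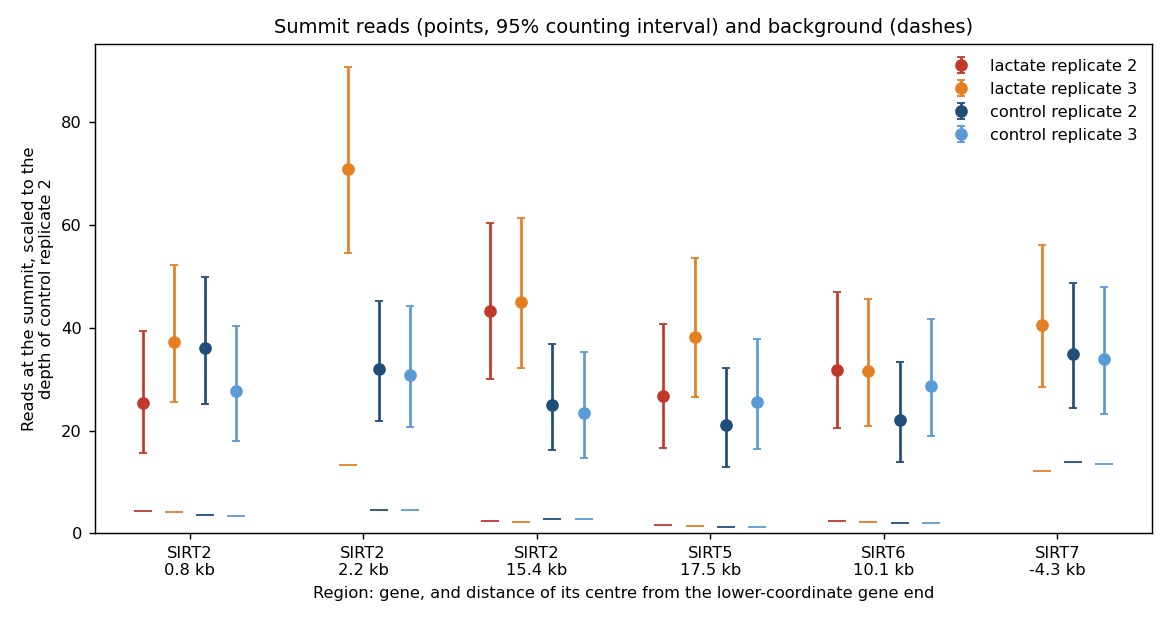
Reads at the summit, scaled to the depth of control replicate 2, for the sirtuin regions with a peak in at least 3 libraries. Points are libraries with 95% counting intervals, and dashes are the background, scaled in the same way. The labels give the gene and the distance of the region's centre from its lower-coordinate end. Lactate replicates stand left of control replicates. The SIRT2 region at 15.4 kb has 43.2 and 45.1 reads with lactate and 25.0 and 23.4 in control.

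SIRT1, the nuclear deacetylase of p53, PGC-1alpha and histones, held no peak from 67879656 to 67923390 of chromosome 10 in any library. The peak nearest to its start site was 446665 and 446722 bp away in the lactate libraries, 34092 bp in control replicate 2 and 447644 bp in control replicate 3. SIRT4, a mitochondrial lipoamidase and ADP-ribosyltransferase, held none from 120286780 to 120318249 of chromosome 12. Its most upstream start lay 127574 and 61926 bp from the nearest peak in the lactate libraries and 53551 and 54953 bp in the control libraries. Mean covered shares of the windows placed SIRT2 first, then SIRT6 (4.86%), SIRT7 (3.52%), SIRT3 (1.64%) and SIRT5 (0.813%), with SIRT1 and SIRT4 at 0.

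Genes that make or use NAD+, the cosubstrate of sirtuins, were counted from a list of 26. A peak in all 4 libraries was found for 10 (38.5%), control peaks alone for 0 and lactate peaks alone for 0, and 11 had none, among them NAMPT, which encodes the rate-limiting enzyme of NAD+ salvage. These shares were near those of all coding genes. Of the 10, NADSYN1 (NAD+ synthetase) was covered over 7341 and 4909 bp in lactate and 8137 and 8255 bp in control libraries. HAAO (an enzyme of the kynurenine route to NAD+) had 3388 and 2594 bp with lactate and 3137 and 2610 bp in control, so the groups overlapped. AFMID, an enzyme of the same route, had 945 and 935 bp with lactate and 1162 and 1828 bp in control. NMRK2, a nicotinamide riboside kinase, had 351 and 850 bp with lactate and 926 and 972 bp in control.

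Covered length was lower in both lactate libraries for 4 of the 26 (15.4%) and higher in both for 3 (11.5%), against 32.8% and 3.4% of coding genes. The 4 were AFMID, NADK, NADSYN1 and NMRK2, and the 3 were ACMSD, NMNAT2 and QPRT; NADK, the last 3 and NAMPT were named after their values were seen. QPRT, which feeds quinolinate into NAD+, had 421 and 485 bp with lactate and 375 and 370 bp in control. NMNAT2, an NAD+-forming adenylyltransferase, had 2449 and 1974 bp with lactate and 1703 and 1568 bp in control. ACMSD, which diverts the kynurenine route from NAD+, had 1049 and 466 bp with lactate and 326 and 383 bp in control.

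Among 23 genes for substrates and regulators of sirtuins, 9 (39.1%) had a peak in all 4 libraries, 1 had control peaks alone, 0 had lactate peaks alone and 6 had none. Over all coding genes these shares were 33%, 5.77%, 1.11% and 40.6%, so 1 of 23 (4.35%) with control peaks alone was near the background. The control-only gene was EP300, the p300 acetyltransferase, with 0 and 0 bp covered in the lactate libraries and 1179 and 1149 bp in the control libraries. Widest coverage by share was at CCAR2, an inhibitor of SIRT1, with 2050 and 2607 bp in the lactate libraries and 7612 and 7145 bp in the control libraries. IDH2, a mitochondrial SIRT3 substrate, had 4451 and 4432 bp with lactate and 5778 and 6219 bp in control. RPS19BP1, a SIRT1 activator, had 878 and 826 bp with lactate and 1570 and 1415 bp in control. ACSS1, the mitochondrial acetyl-CoA synthetase, had 2967 and 2302 bp with lactate and 6586 and 5239 bp in control. In these 4 genes both lactate libraries lay below both control libraries, as in 7 (30.4%) of the list, near the 32.8% of all coding genes. NR1H3, the LXR alpha gene, was the 1 member higher in both lactate libraries, with 387 and 398 bp against 0 and 350 bp in control, and was named after its values were seen. Median covered shares were 0% and 0% with lactate and 0.271% and 0.320% in control for this list, and 0% and 0% with lactate and 0% and 0.268% in control for the NAD+ list.

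Of the 11 zinc-dependent histone deacetylase genes HDAC1 to HDAC11, the other enzymes that remove acyl groups from histones, 6 had a peak in all 4 libraries, 0 had control or lactate peaks alone and 3 had none, which is 54.5%, 0%, 0% and 27.3% against 33%, 5.77%, 1.11% and 40.6% of coding genes. Covered length was lower in both lactate libraries for 6 of the 11 (54.5%), against 32.8% of coding genes. Their median covered share was 0.135% and 1.003% with lactate and 2.86% and 2.70% in control. The median window was 48623 bp for these genes, 52497 bp for the NAD+ list and 47525 bp for the substrates and regulators. Over all coding genes it was 34164 bp. Shares at like window length were taken for the sirtuins alone, and the part of window length in the other lists was not tested. The protein-coding genes whose covered share was most like that of SIRT2 over the 4 libraries were ITIH1, ZER1 and RAMP3, at Euclidean distances of 0.915, 1.03 and 1.06 percentage points among 19973 genes. SIRT2 itself had 3.94% and 4.55% with lactate and 11.3% and 8.89% in control, and ITIH1, a gene of a liver-secreted protein, had 4.57% and 4.30% with lactate and 11.9% and 8.67% in control.

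**Figure D4:**
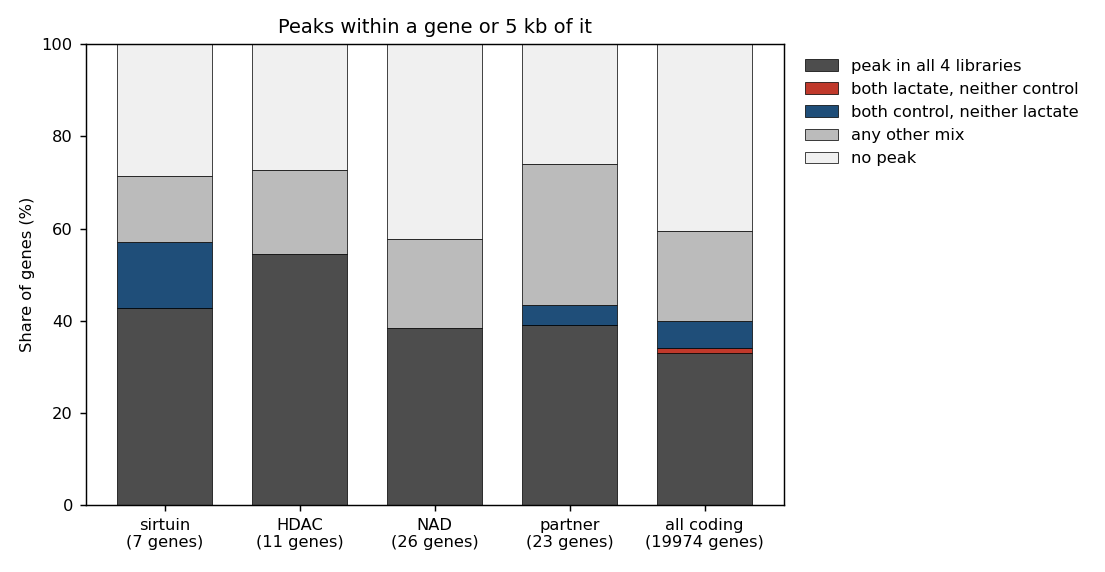
Share of genes in percent by the libraries that hold a peak in the gene or within 5 kb of it. Bars stand for the sirtuin genes, the histone deacetylase genes, the NAD+ list, the list of sirtuin substrates and regulators, and all coding genes. A peak in all 4 libraries was held by 42.9% of the 7 sirtuin genes and 33% of all coding genes.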

How the data were processed

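H4K5la ChIP-seq had been run on PLC/PRF/5 cells, and the 2 input libraries, which have no peak list, were not analysed here. Trimming, alignment and duplicate removal preceded peak calling, per the labels' protocols. Trimmomatic 0.38, Bowtie2 2.3.4.2, Picard 2.18.11, MACS2 2.2.6 and build hg38 are named, per the submitters' processing notes. Each deposited list holds the peaks of 1 library. For each peak the deposited columns hold a whole-number score, the fold enrichment at the summit as a ratio to background, -log10 p, -log10 q and the summit offset, all from the authors. Fold values describe peaks within their own list. The lists hold no read counts.

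Summit reads were solved for from the deposited fold and -log10 p with the caller's formula and 1 scaling factor per library; 100% of peaks gave a whole number within 0.001 on the -log10 p. On simulated peaks with 6 known factors 100% of reads were recovered. Background reads are the caller's local expectation in reads of the library. For the fold, the caller adds 1 to the scaled reads and 1 to the scaled background before taking the ratio. Fold values therefore depend in part on the scaling factor, which was 0.858 and 0.760 in the lactate libraries and 0.703 and 0.748 in the control libraries. Comparisons of fold between libraries include this difference. Relative depth also used the lowest background and the narrowest peak width of each library. Input depths were 0.959 and 0.960 with lactate and 1.002 in control replicate 3, relative to control replicate 2.

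RefSeq (GRCh38.p14) supplied gene spans, start sites and promoter sequences. Python 3.11.15, pandas 2.3.3, numpy 2.4.6, scipy 1.17.1 and matplotlib 3.10.9 were used. Members and lists were chosen with earlier results of these data known. Named genes are the sirtuins, genes under their peaks, in the NAD+ and substrate lists up to 4 members per call by covered share, and the 3 genes of covered share most like that of SIRT2. Window sums and region values were tested by exact permutation (two-sided) of the labels; lists were described by counts. Alternatives were a -log10 q of at least 5, equal numbers of peaks, no flank, a flank of 10 kb, summits in place of overlap, peaks within 1 kb joined, a reciprocal overlap of 50%, each library left out and a replicate block.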

Additional observations from a re-analysis of the deposited data

How the results depend on the processing

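The lower number and covered length of peaks in the sirtuin windows with lactate kept their direction in every alternative run. With all 4 libraries kept, the difference in covered length lay between -6761.5 bp with peaks within 1 kb joined and -2608 bp without flanks. That in the number of peaks then lay between -8 with a flank of 10 kb and -3 without flanks or with equal numbers of peaks. Leaving out a library gave -5066.5 to -4238.5 bp and -9 to -6 peaks. With a replicate block, planned as an alternative to the unpaired test, the differences were the same, -4652.5 bp and -7.5 peaks. An exact sign-flip test over 2 pairs gave p = 0.5, its smallest value. Deviations of same-numbered libraries had a correlation of 0.00145 over coding windows. Many of these windows held no peak, so this value cannot decide whether same-numbered libraries shared a culture or batch. For the SIRT7 window alone the difference reversed, to 169 bp with equal numbers of peaks against -806 bp, since there both control libraries were left with no peak. Without flanks the SIRT6 window held no peak in any library. Regions of the sirtuin windows with a peak in all 4 libraries numbered 2 under a reciprocal overlap of 50%, against 4; by their widths the 2 lost were both SIRT2 regions, the 5′ region with higher lactate reads among them. Sirtuin genes with control peaks alone numbered 1 to 2 over the left-out libraries, 2 being without lactate replicate 3. The same count ran from 0 to 2 for the NAD+ list (2 without control replicate 2, 1 without lactate replicate 3) and from 1 to 4 for the substrates and regulators (4 without control replicate 2, 3 without control replicate 3, 2 without lactate replicate 3), because 1 library then stands for its group. A list of peaks records no signal below its threshold, and 2 libraries a group cannot give a p below 0.333.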
